A study of Torulaspora delbrueckii with 9 samples.

Results

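The peaks described here are those of the terminal 20 kb of the chromosomes of Torulaspora delbrueckii, a budding yeast related to Saccharomyces cerevisiae. They were taken from 6 deposited lists of ChIP-seq peaks, 2 each for Orc1, Orc2 and Orc4, which are subunits of the origin recognition complex (ORC). A peak was a member if any of its bases lay within 20 kb of a chromosome end. The left end was position 0, and the right end was the largest peak end listed for that chromosome in any of the lists. The rule used position only and no enrichment value. It gave 227 of 1900 peaks, at the 16 ends of 8 chromosomes. The Orc1 lists held 38 of 263 and 77 of 300 peaks as members (14.4% and 25.7%). The Orc2 lists held 29 of 339 and 29 of 342 (8.55% and 8.48%), and the Orc4 lists 31 of 408 and 23 of 248 (7.60% and 9.27%).

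ORC binds DNA at replication origins and loads the replicative helicase there, and its subunits normally act as one complex. Orc1 also shares ancestry, through a gene duplication, with Sir3, which builds silent chromatin in Saccharomyces cerevisiae. In that yeast silent chromatin covers the silent mating-type loci and stretches next to the telomeres, and its assembly is often nucleated by DNA sites that recruit ORC, Rap1 or Abf1. A subunit of ORC can thus be mapped both as a mark of origins and, for Orc1, as a possible component of chromatin that extends along the DNA.

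Orc1 carried a MYC tag in strains LRY3204 and LRY3211 and was precipitated with anti-MYC, and its peaks were called against genomic input DNA. Orc2 carried a V5 tag in strains LRY3142 and LRY3143, Orc4 a V5 tag in strains LRY3138 and LRY3139, and both were precipitated with anti-V5. Their peaks were called against 1 mock immunoprecipitate of the untagged strain JRY10156, which was also the strain of the 2 input libraries. All strains were grown in YPD, and chromatin was cross-linked with formaldehyde and sonicated. Library 1 and library 2 of a subunit are the lists of its strains in the order given. The series' design text calls them technical replicates, although the labels give different strains, so p-values measure only the spread between these libraries. Subunit, tag, antibody and control changed together between Orc1 and the other subunits and cannot be told apart. The words SIR and Kos3V5 stand in the peak names for Orc1 and are not explained, so whether those strains differ by more than the tag is not known here. Fold enrichment, the authors' value for each peak, is the immunoprecipitate over its control at the summit, so levels of Orc1 and of the other subunits are relative to different controls. The number of reads per library is unknown from peak lists. Coordinates are those of the lists, and for the genome build behind them nothing is given in the sources used here.

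The position of the right ends depends on Orc1. At all 8 right ends the outermost listed base belonged to an Orc1 peak, to library 1 on chromosomes 1 and 4 and to library 2 on the others. The other Orc1 list stopped within 208 bp of the same position at 6 right ends. It stopped 13504 bp short on chromosome 3 and 14473 bp short on chromosome 7, so these 2 ends rest on Orc1 library 2 alone. An outermost Orc1 distance of 0 at a right end follows from the rule and is no measurement. At the 8 left ends, where the position is fixed by numbering, Orc1 library 2 started within 106 bp of position 0.

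The terminal 20 kb held long blocks of Orc1 and short, separate peaks of Orc2 and Orc4. Members covered 56.132 and 144.571 kb in the Orc1 lists, 15.985 and 15.057 kb in the Orc2 lists, and 21.337 and 16.007 kb in the Orc4 lists. Both Orc1 lists lay above all 4 other lists, and the Orc1 lists differed from each other far more than those of Orc2 or Orc4 did. These lengths were 17.5% and 45.2% of the terminal windows for Orc1, 4.995% and 4.71% in the Orc2 lists, and 6.67% and 5.002% in the Orc4 lists. In the rest of the genome the peaks of every list covered a narrow range of shares, at 2.35% and 2.72% in the Orc1 lists, 2.25% and 2.17% in the Orc2 lists, and 2.97% and 1.91% in the Orc4 lists. The density at the ends over the density elsewhere was therefore 7.48 and 16.6 in the Orc1 lists, against 2.22 and 2.17 for Orc2 and 2.25 and 2.62 for Orc4. Of the total length covered by a list, 21.2% and 37.4% lay in the terminal 20 kb for Orc1, 7.39% and 7.23% in the Orc2 lists, and 7.48% and 8.62% in the Orc4 lists. The mean share was 21.6 percentage points higher for Orc1 (exact permutation p = 0.0667, two-sided, over 15 arrangements of the 6 libraries, the smallest p they can give, so that no comparison of 2 libraries with 4 can pass 0.05). It was 13.5 points without Orc1 library 2 and 29.7 points without Orc1 library 1. Orc2 over Orc4 covered length was 0.831, a difference that did not pass a test over 6 splits whose smallest p is 0.333 (exact permutation p = 0.333, two-sided).

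**Figure D1:**
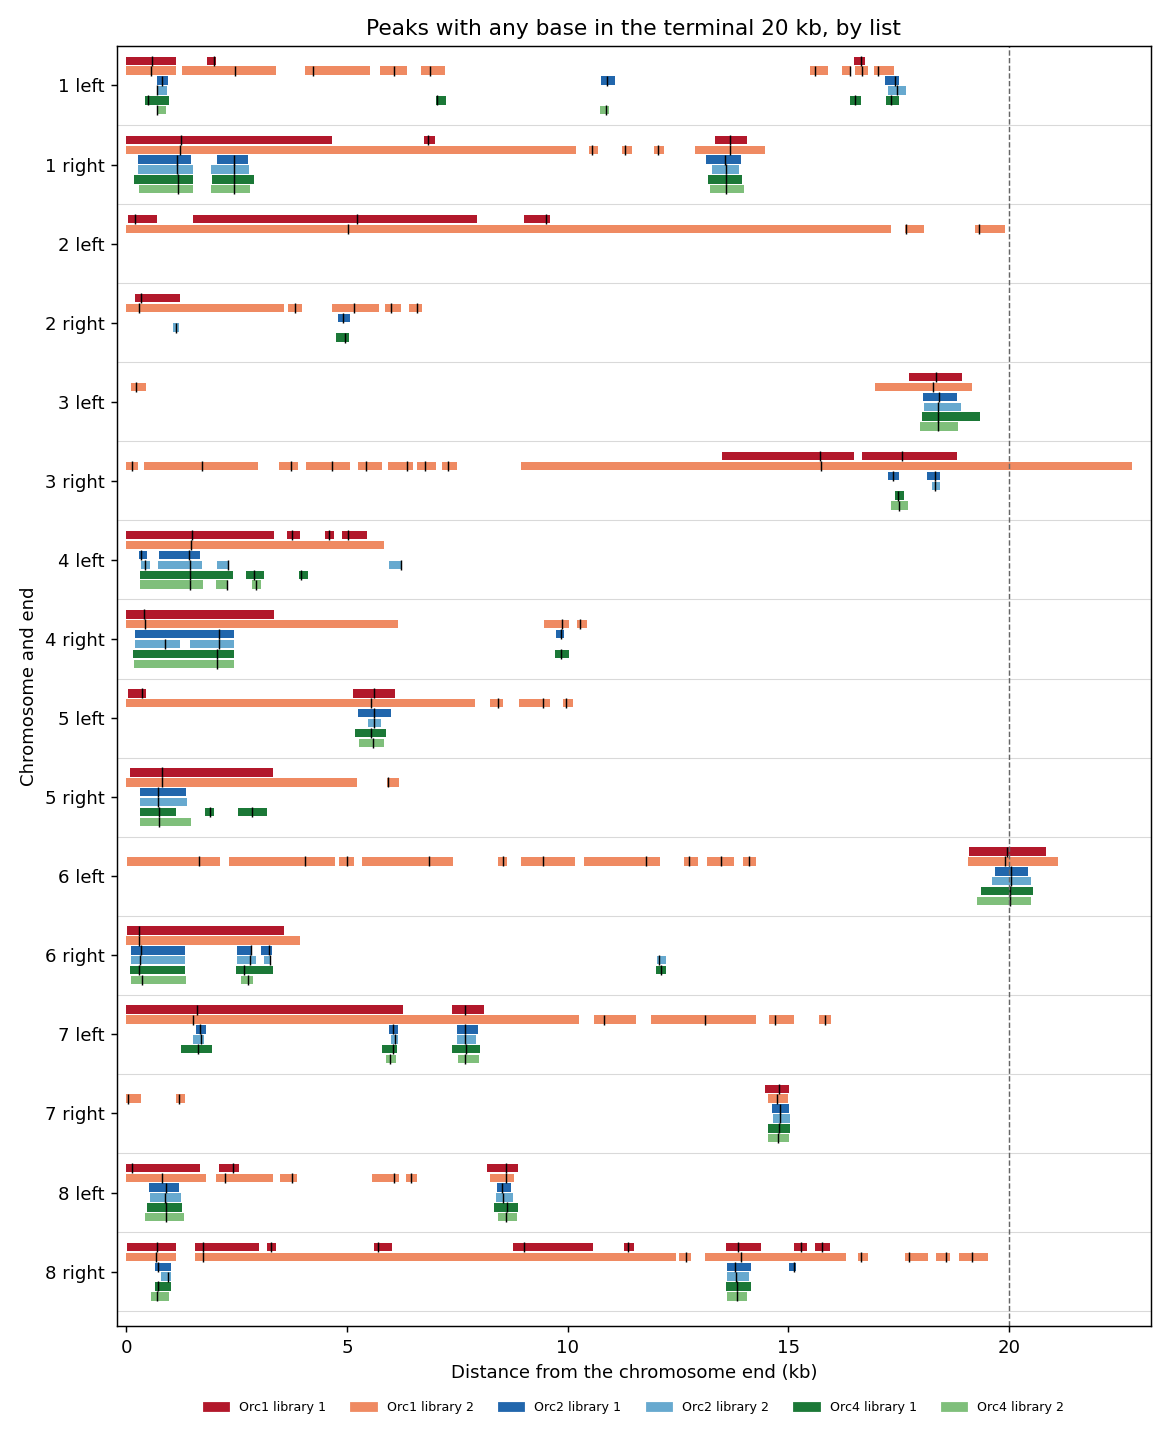
Map of the 227 peaks by chromosome end, one row per list, with distance from the end in kb on the x axis, boxes for peaks, black ticks for summits and a dashed line at 20 kb. Orc1 blocks run inward from most ends, the left end of chromosome 2 has peaks in the Orc1 lists alone, and Orc2 and Orc4 peaks are short and stacked on one another.

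The Orc1 excess held at nearly every end. Both Orc1 lists covered more than each Orc2 and Orc4 list at 15 of 16 ends (93.75%). Among all 456 windows of 20 kb tiled over the chromosomes, 12.1% met the same rule, and among the 440 windows away from the ends 9.09% did so. It was 7 of 8 at the left ends alone, and 13 of 14 without the 2 right ends that rest on Orc1 library 2. The exception was the left end of chromosome 3, where Orc1 covered 1.197 and 2.559 kb and Orc4 library 1 covered 1.318 kb. Orc1 library 2 covered more than Orc1 library 1 at 16 of 16 ends. Its lowest value was 0.996 kb, its median 7.09 kb and its highest 18.4 kb, while library 1 ranged from 0.537 to 7.709 kb with a median of 3.29 kb.

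**Figure D2:**
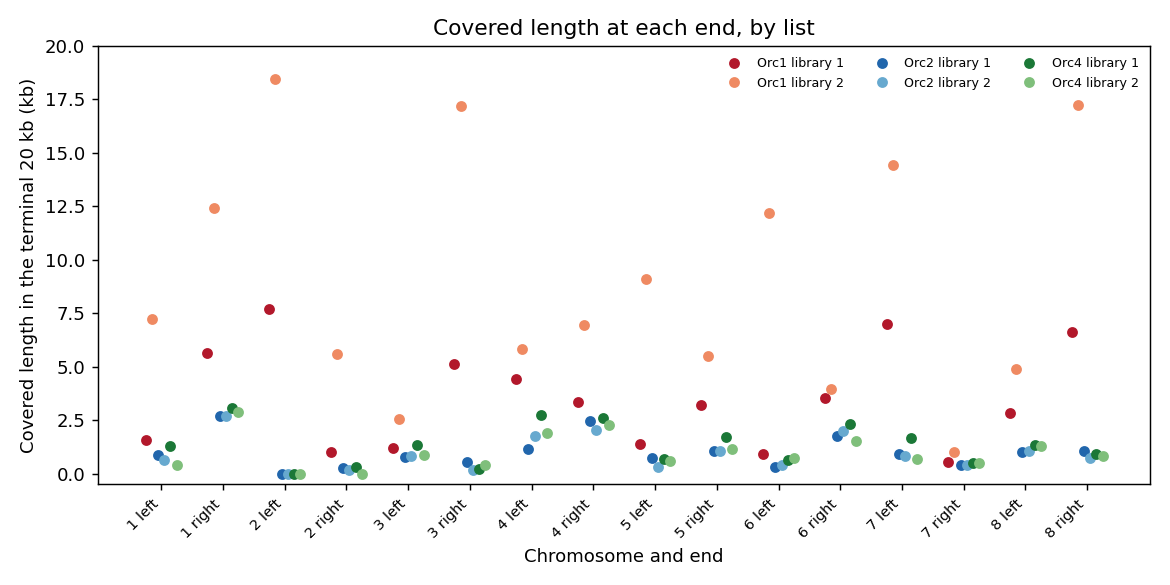
Length covered by peaks in the terminal 20 kb of each chromosome end (y axis, kb), with one point per list. The left ends of chromosomes 2 and 7 and the right ends of chromosomes 1, 3 and 8 have the most Orc1, and the Orc2 and Orc4 points of those ends stay at or under 3.064 kb.

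Orc1 coverage was highest at the very end and fell inward over many kilobases, whereas Orc2 and Orc4 coverage exceeded its level elsewhere mainly in the outer 2 kb. In the outermost kilobase Orc1 peaks covered 67.1% and 90.8% of the bases of the 16 ends, Orc2 peaks 29.0% and 28.2%, and Orc4 peaks 33.6% and 31.1%. The Orc1 lists had a peak in that kilobase at 12 and 16 ends, and each of the 4 other lists had one at 8 ends. At right ends the rule itself puts an Orc1 peak at the tip, so values at the left ends alone are given too. At the 8 left ends the shares of the outermost kilobase were 63.4% and 91.7% in the Orc1 lists, 14.7% and 14.8% in the Orc2 lists, and 22.0% and 18.3% in the Orc4 lists. A peak lay in that kilobase at 6 and 8 left ends for Orc1 and at 3 left ends for each other list. Over all 16 ends, between 2 and 5 kb from the end the shares were 34.6% and 77.6% in the Orc1 lists, 3.94% and 4.35% in the Orc2 lists, and 8.63% and 4.12% in the Orc4 lists. Orc2 and Orc4 were thus near their level in the genome from about 5 kb inward, where they covered 1.92% to 3.47% between 5 and 10 kb. The Orc1 lists parted from each other over the same distance, with 12.0% and 47.5% between 5 and 10 kb, 5.40% and 31.2% between 10 and 15 kb, and 8.31% and 20.5% between 15 and 20 kb. Just beyond the window limit, at 20 to 30 kb, they came together at 5.95% and 7.78%. The Orc2 lists had 2.75% and 1.99% there, and the Orc4 lists 3.71% and 1.91%. The Orc1 excess at 20 to 30 kb lay at the right ends. There Orc1 had 7.45% and 10.2%, and no other list exceeded 0.824%. At the left ends the Orc1 lists had 4.46% and 5.33%, both below Orc4 library 1 with 6.601%. Between 30 and 50 kb Orc1 library 1 had 4.99% and library 2 had 7.09%, while no Orc2 or Orc4 list exceeded 2.62%. In that range both Orc1 lists exceeded every other list at the left ends and at the right ends. Between 50 and 100 kb Orc1 library 1 had 3.56% and library 2 had 5.87%, while the highest other list, Orc4 library 1, had 3.49%. This excess lay at the left ends, with 4.59% and 9.17% for Orc1 and 3.54% for Orc4 library 1. At the right ends Orc1 had 2.54% and 2.57%, below the 3.43% of Orc4 library 1. Beyond 100 kb from the ends the Orc1 lists covered 2.031% and 2.096%. This is within the range of the Orc2 and Orc4 lists there, 1.88% to 2.91%.

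**Figure D3:**
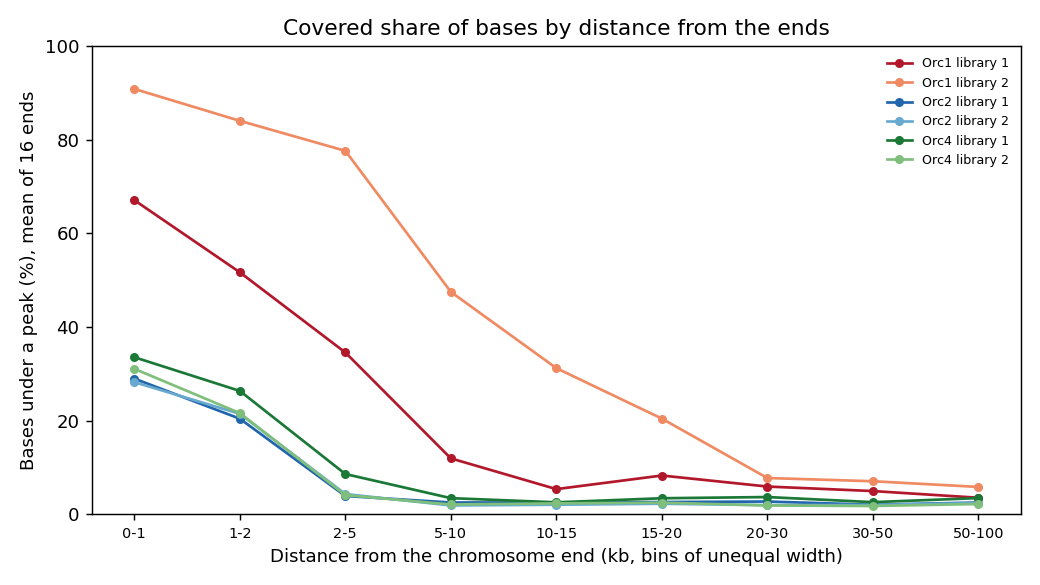
Share of bases under a peak (y axis, percent) by distance from the chromosome end (x axis, bins of unequal width in kb), as the mean of the 16 ends for each list. Orc1 library 2 stays above every other list in all bins, out to 100 kb, and the Orc2 and Orc4 lines are close together from 5 kb inward.

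A run of peaks was followed inward from each end for as long as gaps were at most 1000 bp. The innermost base of that run lay at a median of 2943 and 6962 bp in the Orc1 lists. The medians were 469 and 468 bp in the Orc2 lists, and 482 and 449 bp in the Orc4 lists. Ends that had no peak at the end were counted as 0. Each Orc2 and Orc4 list had a run at 8 of 16 ends, so its median lies midway between 0 and its shortest run. The mean Orc1 value was 4485 bp greater (exact permutation p = 0.0667, two-sided, 15 splits, the smallest p they can give). It was 2476 bp greater without Orc1 library 2 and 6495 bp greater without Orc1 library 1. At the left ends alone, where no peak sets the position, it was 4806 bp greater (exact permutation p = 0.0667, two-sided). There a run was present at 6 and 8 of 8 ends for Orc1. The other lists each had one at 3 ends, so their medians were 0. At right ends the rule guarantees a run in an Orc1 list. The longest runs reached 7954 and 20326 bp in the Orc1 lists, 2753 and 2791 bp in the Orc2 lists, and 4109 and 3052 bp in the Orc4 lists.

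Most single Orc1 members were small, and the length lay in a few wide ones. Median widths of members were 760 and 571 bp in the Orc1 lists, 346 and 396 bp in the Orc2 lists, and 562 and 484 bp in the Orc4 lists. Other peaks of the same lists had medians of 907 and 946 bp, 610 and 586 bp, and 598 and 783 bp. The log2 ratio of members to other peaks differed by 0.05 between Orc1 and the other subunits (exact permutation p = 0.933, two-sided, smallest possible 0.0667). The sign of this difference turned when single libraries were left out, so median width gave no direction. With only peaks of a −log10 q of at least 10 it was 1.11, and with equal numbers of peaks per list 0.68. Peaks wider than 2500 bp were another matter: the Orc1 lists had 8 and 13 at the ends and 4 and 3 elsewhere. The Orc2 and Orc4 lists had none at the ends and almost none elsewhere, with 2 and 0 for Orc2 and 1 and 0 for Orc4. The widest members measured 6450 and 17323 bp in the Orc1 lists, 2256 and 1252 bp in the Orc2 lists, and 2297 and 2258 bp in the Orc4 lists.

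Gaps between neighbouring members were short for Orc1. The median gap was 771 and 314 bp in the Orc1 lists, 2733 and 2479 bp in the Orc2 lists, and 2555 and 1404 bp in the Orc4 lists. At most 1000 bp separated 12 of 22 and 51 of 61 neighbours for Orc1, 5 of 14 and 5 of 14 for Orc2, and 6 of 16 and 3 of 9 for Orc4. Many Orc1 members were therefore pieces of an interrupted block, and such pieces are not independent of each other.

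Fold enrichment of members was modest in every list. Medians were 3.94 and 2.63 in the Orc1 lists, 3.81 and 3.39 in the Orc2 lists, and 3.54 and 6.33 in the Orc4 lists, against 6.68 and 7.52, 7.54 and 6.94, and 3.86 and 10.9 for the other peaks of the same lists. The log2 ratio of members to other peaks for fold differed by −0.41 between Orc1 and the other subunits, less than the spread between libraries (exact permutation p = 0.533, two-sided, smallest possible 0.0667). It became 0.34 when only peaks with a −log10 q of at least 10 were kept. In Orc1 library 2 the member farthest inside by its outer edge lay 19.2 kb from the left end of chromosome 2 with a width of 681 bp and 2.06 fold, and the nearest peak outside lay 20.1 kb from the right end of chromosome 8 with 243 bp and 1.96 fold. In Orc1 library 1 they were a peak 19.1 kb from the left end of chromosome 6 (1750 bp, 11.4 fold) and one 20.9 kb from the right end of chromosome 4 (588 bp, 1.70 fold).

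The Orc1 lists were nested at the ends. Of the bases that library 1 covered in the terminal 20 kb, 99.5% were also covered by library 2, and 38.6% in the other direction. In the rest of the genome the same shares were 90.9% and 78.5%. All 38 members of library 1 overlapped a member of library 2, but 54 of the 77 members of library 2 overlapped none of library 1. Those 54 had a median of 2.45 fold, a highest value of 4.40 fold and a median width of 419 bp. The other 23 had medians of 8.56 fold and 3195 bp. Across the 16 ends, covered length in library 1 and in library 2 had a Pearson correlation of 0.75 and a Spearman correlation of 0.67, given as a description, since all ends share the same 2 libraries. Orc2 bases at the ends were shared at 82.6% and 87.6%, and Orc4 bases at 69.7% and 92.9%.

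Orc2 and Orc4 were mostly listed together near the ends. Their peaks within 20 kb merged into 36 regions, of which 19 had a peak in all 4 lists, 3 in 3 lists, 6 in 2 lists and 8 in 1 list. The 19 regions found in all 4 lists are called sites below. They lay at 13 ends, and none lay at either end of chromosome 2 or at the right end of chromosome 3. Summits of the 4 lists lay within 100 bp of each other at 14 of the 19 sites, with a median span of 29 bp, and at 190 of the 204 other sites of the genome, with a median span of 32.5 bp. The summits of all 4 lists fell outside genes at 17 of 19 sites (89.5%), against 164 of 204 (80.4%) elsewhere. At the other 2 sites, by the tRNA genes TDEL0Ftrna5T and TDEL0Gtrna4V, the summit of Orc2 library 2 lay in the tRNA gene. Of the 19 sites, 2 had a tRNA gene at most 1000 bp away (10.5%), against 52 of 204 other sites (25.5%). Every one of the 19 sites also had a peak in both Orc1 lists, as did 185 of 204 other sites.

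Sites came in a wide range of strengths. The strongest, 1.17 kb from the right end of chromosome 1 between TDEL0A08060 and the end, had 21.2 and 21.5 fold for Orc1, 47.7 and 42.0 fold for Orc2, and 49.6 and 36.0 fold for Orc4. A site 0.73 kb from the right end of chromosome 5, outside TDEL0E05770, had 14.2 and 13.0 fold for Orc1, 38.8 and 39.1 fold for Orc2, and 24.2 and 32.2 fold for Orc4. In both, Orc1 lay below every Orc2 and Orc4 value. The weakest by Orc2 and Orc4, 0.67 kb from the left end of chromosome 1, had the opposite order. There Orc1 had 8.88 and 8.56 fold, Orc2 1.81 and 1.41 fold, and Orc4 1.63 and 1.47 fold.

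Relative to other sites of the same list, terminal sites had a slightly higher median fold in the Orc1 lists and a lower one in the Orc2 and Orc4 lists. Both Orc1 folds exceeded all 4 others at 6 of 19 sites (31.6%). Over all 223 sites of the genome 3.14% did so, which left 1 of 204 (0.490%) outside the terminal 20 kb, where 185 had both Orc1 peaks. In 3 of these 6 cases both Orc1 summits lay within 150 bp of the mean Orc2 and Orc4 summit. These cases were the left end of chromosome 1 and the outermost sites at the right ends of chromosomes 6 and 8. On chromosome 6 Orc1 had 8.33 and 8.28 fold, Orc2 4.88 and 4.44, and Orc4 6.88 and 4.83. On chromosome 8 Orc1 had 8.91 and 7.69 fold, Orc2 2.07 and 2.49, and Orc4 2.03 and 2.31. At the chromosome 1 and 8 sites the Orc2 and Orc4 peaks were weak, and their summits spanned 320 and 250 bp. In the other 3 the site lay under a wide Orc1 peak whose summit was over 1 kb away, so that peak's fold is not that of the site. Among the 188 sites whose Orc1 summits both lay within 150 bp, 2.13% met the rule, with 3 of 13 at the ends and 1 of 175 elsewhere. Median fold at terminal sites over other sites was 1.11 and 1.22 in the Orc1 lists, 0.715 and 0.652 in the Orc2 lists, and 0.564 and 0.589 in the Orc4 lists. The log2 ratio was thus 0.89 higher for Orc1 (exact permutation p = 0.0667, two-sided, 15 splits, the smallest p they can give). With sites limited to those with nearby Orc1 summits it was 0.96. It shrank to 0.38 when only peaks with a −log10 q of at least 10 were kept, and to 0.29 with equal numbers of peaks per list (exact permutation p = 0.2, two-sided).

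**Figure D4:**
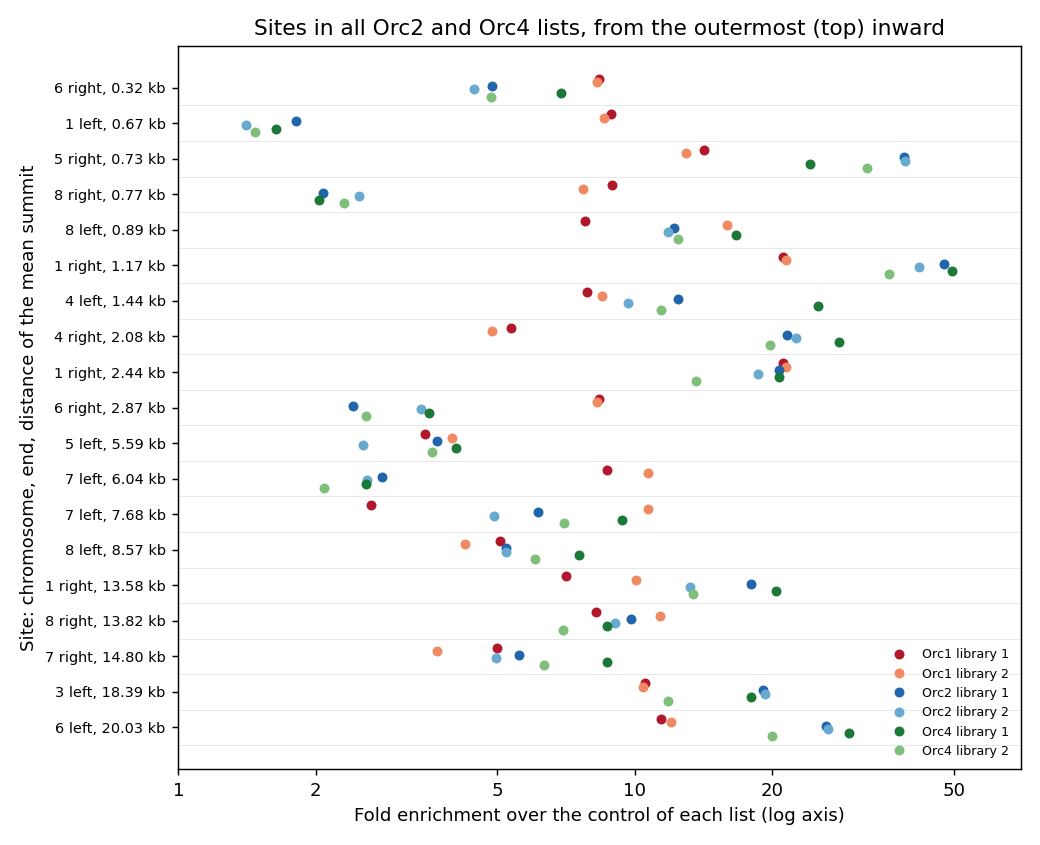
Fold enrichment over the control of each list (x axis, log scale) at the 19 terminal sites, sorted by distance from the end in kb. Orc1 points lie right of all others at 6 sites and left of all others at sites such as the right end of chromosome 5, and sites under one wide Orc1 peak repeat its value.

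Orc1 peaks over terminal sites were wider than those of Orc2 and Orc4. Both Orc1 peaks were wider than all 4 others at 16 of 19 sites (84.2%), against 32.3% of all 223 sites. Of the 204 sites elsewhere, 185 of which had both Orc1 peaks, 27.5% met this rule. The exceptions lay 13.6 kb from the right end of chromosome 1 and 18.4 kb from the left end of chromosome 3. The last lay 14.8 kb from the right end of chromosome 7. All were far from an end, but so were some sites that met the rule. These lay 13.8 kb from the right end of chromosome 8 and 20.03 kb from the left end of chromosome 6. The median ratio of Orc1 width to Orc2 and Orc4 width was 3.39 at terminal sites and 1.12 elsewhere. In the Orc1 lists the median width at terminal sites over other sites was 1.72 and 3.90, against 0.870 and 0.784 for Orc2 and 0.851 and 0.946 for Orc4. This log2 ratio was 1.59 higher for Orc1 (exact permutation p = 0.0667, two-sided, 15 splits, the smallest p they can give), and 0.93 higher with sites limited to those with nearby Orc1 summits. Without Orc1 library 2 it was 1.00, and without library 1 it was 2.18. Several sites share an Orc1 peak and are not independent of each other.

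Orc1 peaks extended past the Orc2 and Orc4 regions on both sides. Orc1 peaks ran past the outer edge of the Orc2 and Orc4 region by a median of 174 bp in library 1 and 429 bp in library 2, and past its inner edge by 212 and 1896 bp. Summed over the 19 sites, library 1 extended 13.013 kb outward and 12.171 kb inward, and library 2 extended 27.187 kb outward and 41.996 kb inward. The inward extension was the greater at 10 of 19 sites in each library, so no side was favoured in both. At other sites the medians were −45 and −42 bp on the outer side and −26 and −21 bp on the inner side, negative where Orc1 stopped inside the region. Distance to a nearby end limits the outward side, and its part in this difference was not tested.

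**Figure D5:**
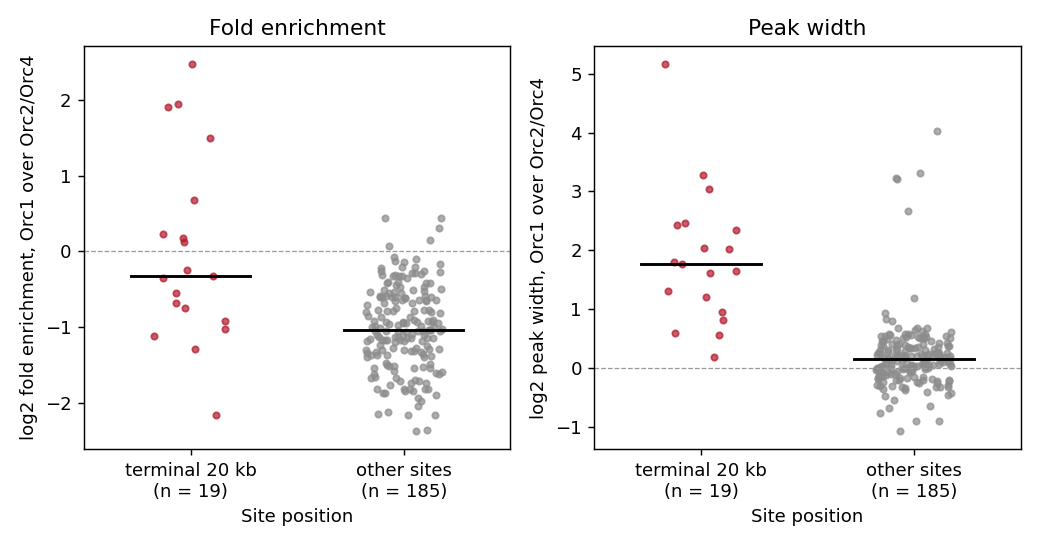
Orc1 over Orc2 and Orc4, as log2 of fold enrichment (left panel) and of peak width (right panel), at the 19 terminal sites and at the 185 other sites with both Orc1 lists. Each point is a site with a random sideways shift, black lines are medians, and terminal sites have medians of −0.33 for fold and 1.76 for width against −1.03 and 0.16.

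Orc1 summits lay near those of the other subunits at most sites, at a smaller share of sites near the ends than elsewhere. Their median distance from the mean Orc2 and Orc4 summit was 73.3 bp for library 1 and 98.3 bp for library 2 at the ends, and 54 bp for each elsewhere. Both Orc1 summits lay within 150 bp at 13 of 19 terminal sites (68.4%) and at 175 of 204 other sites (85.8%). All 19 terminal sites but only 185 of the 204 others had a peak in both Orc1 lists, and sites without both count here as not near. At the right end of chromosome 4 the Orc1 summit was displaced in both Orc1 lists. The summits there were 0.412 and 0.422 kb from the end for Orc1, with 5.34 and 4.87 fold. The highest Orc2 and Orc4 summits lay 2059 to 2105 bp from the end, with 19.8 to 28.0 fold.

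Ends differed in what lay at their tip. At 8 ends the outermost site was within 3000 bp of the tip, namely both ends of chromosomes 1, 4 and 8 and the right ends of chromosomes 5 and 6. At these ends both Orc1 lists had a run of peaks from the end. It reached 2031 to 5448 bp inward (median 3375 bp) in library 1 and 3875 to 20326 bp (median 6170 bp) in library 2. A run there was partly given in advance, since every site had a peak in both Orc1 lists. At the right ends among them the rule also puts an Orc1 peak at the tip. At the 8 other ends library 1 had no such run at 4, and its values spread from 0 to 7954 bp (median 224 bp). Those 4 include the right ends of chromosomes 3 and 7, whose position is set by library 2 alone. Library 2 gave 450 to 18070 bp at the 8 other ends (median 7448 bp). The difference between kinds of end in library 1 was thus not present in the medians of library 2, and no test was made, since ends share their libraries.

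The left end of chromosome 2 had the widest Orc1 peak, the greatest Orc1 covered length and no Orc2 or Orc4 peak within 20 kb. Going inward, Orc1 library 1 had peaks at 0.039 to 0.709 kb (4.4 fold), 1.504 to 7.954 kb (15.8 fold) and 9.013 to 9.602 kb (2.6 fold). Library 2 had a single peak from 0 to 17.3 kb (positions 1 to 17323, 17.7 fold) and small ones at 17.6 and 19.2 kb. The main summits of the libraries lay 5.22 and 5.02 kb from the end, beside and in TDEL0B00100, the gene nearest to this end. The block also covered TDEL0B00110.

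The right end of chromosome 3 held the genes named HMLALPHA1 and HMLALPHA2, after the silent copies of the alpha mating-type regulators of Saccharomyces cerevisiae. Orc1 library 1 started only 13.5 kb from the end, with peaks of 2984 bp (7.60 fold, summit at 15.7 kb between HMLALPHA1 and TDEL0C07020) and 2142 bp (3.35 fold, over both HMLALPHA genes). Library 2 had 8 peaks between 0 and 7.49 kb with at most 4.40 fold, the widest of 2579 bp, then one of 13824 bp with the same summit (12.8 fold, at 15.7 kb). Orc2 and Orc4 were weak there. Orc2 library 1 had 2.4 and 3.1 fold in peaks starting 17.3 and 18.1 kb from the end, Orc2 library 2 had 2.0 fold at 18.2 kb, and the Orc4 lists had 3.1 and 2.2 fold at 17.4 and 17.3 kb. A stronger Orc2 peak, with 7.74 fold in library 1, began 21.4 kb from the end, just outside the window but under the inner part of the wide Orc1 peak of library 2.

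At the left end of chromosome 7 the strongest Orc1 and the strongest Orc2 and Orc4 signals lay at different places. Orc1 covered the outer 6.27 kb in library 1 and 10.3 kb in library 2, with 8.71 and 10.7 fold. Both summits lay 1.5 to 1.6 kb from the end, outside the tRNA gene TDEL0Gtrna8T, where Orc2 had 2.8 and 3.0 fold, Orc4 library 1 had 3.5 fold and Orc4 library 2 had no peak. Orc2 and Orc4 were highest farther inward, 7.68 kb from the end between TDEL0Gtrna4V and TDEL0G00100. They had 6.1 and 4.9 fold for Orc2 and 9.4 and 7.0 fold for Orc4 there, beside 2.6 fold in Orc1 library 1. In library 2 the wide Orc1 peak included this place.

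A block with few Orc2 and Orc4 peaks beneath it also lay at the right end of chromosome 8. Orc1 had a peak over the outer 1.1 kb (8.91 and 7.69 fold) and a second starting 1.56 kb from the end. The second was 1440 bp wide in library 1 and 10881 bp wide in library 2 (7.64 and 9.43 fold), and it overlapped TDEL0H04530 and TDEL0H04540 in library 2. Orc2 and Orc4 peaks were absent from all 4 lists between 1.01 and 13.6 kb from this end. At 13.8 kb, between TDEL0H04520 and TDEL0H04530, all subunits had a peak, with 8.2 and 11.4 fold for Orc1, 9.8 and 9.0 fold for Orc2, and 8.7 and 7.0 fold for Orc4.

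Chromosome 1 had contrasting ends. On the right, Orc1 ran from the tip to 4.67 kb in library 1 and 10.2 kb in library 2 (positions 1407913 to 1418104), over the strongest terminal site and a second one at 2.44 kb (Orc2 20.7 and 18.6 fold, Orc4 20.7 and 13.6 fold). A further site at 13.6 kb had 7.1 and 10.1 fold for Orc1, 18.0 and 13.2 fold for Orc2, and 20.4 and 13.4 fold for Orc4. On the left, Orc1 covered the outer 1.13 kb in both libraries. Library 1 had a further peak of 2.02 fold at 1.83 to 2.03 kb. Library 2 had 4 further peaks out to 7.22 kb with 4.5 fold or less. Orc2 library 1 and Orc4 library 2 each had a weak peak 10.7 to 10.8 kb from this end, with 3.8 and 2.0 fold, over IMA2, named for an isomaltase. No Orc1 list had a peak there. Around the tRNA genes TDEL0Atrna8A and TDEL0Atrna5Y, 15.5 to 17.7 kb from the end, all lists but Orc4 library 2 had peaks. These had 2.89 fold or less.

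At the ends of chromosome 4 the tip carried both kinds of signal. On the left, Orc1 peaks covered 3346 and 5846 bp from position 0 (7.85 and 8.48 fold). Library 1 also had smaller peaks out to 5.45 kb, with 2.57 fold or less. Orc2 and Orc4 peaks with summits 1.42 to 1.45 kb from the end had 12.5 and 9.65 fold for Orc2 and 25.2 and 11.4 fold for Orc4. TDEL0D00100 was the first gene. On the right, outside TDEL0D06680, Orc1 covered 3352 bp in library 1 and 6.16 kb in library 2.

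Chromosome 5 had a strong site at one tip and a weak inner site at the other end. The right end had the strong site at 0.73 kb, under Orc1 peaks of 3230 and 5229 bp. At the left end the site lay 5.59 kb inward between TDEL0E00110 and TDEL0E00120, with 3.5 and 4.0 fold for Orc1, 3.7 and 2.5 fold for Orc2, and 4.1 and 3.6 fold for Orc4. Orc1 library 1 had separate peaks at 0.050 to 0.448 kb and at 5.126 to 6.092 kb, and library 2 joined them into a single peak of 7889 bp.

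On chromosome 6 the right end was compact. Orc1 covered 0.013 to 3.572 kb and 0 to 3.946 kb, and both libraries had their summit 0.28 kb from the end with 8.3 fold. Orc2 and Orc4 had their outermost summits 0.30 to 0.35 kb from the end, outside the tRNA gene TDEL0Ftrna5T, and a weaker site at 2.87 kb between TDEL0Ftrna2V and TDEL0Ftrna5T. The left end was the reverse. Orc1 library 1 had a single peak there, 19.1 kb inward and 1750 bp wide, while library 2 added 10 weak peaks between 0.011 and 14.3 kb (2.4 to 3.3 fold). The site at 20.03 kb, between TDEL0F00160 and TDEL0F00170, had 11.4 and 12.0 fold for Orc1, 26.2 and 26.6 fold for Orc2, and 29.5 and 19.9 fold for Orc4. Its summit lies just past the 20 kb limit, and its peaks are members because their outer bases are within it.

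Of the 4 remaining ends, 3 had little Orc1 in library 1. At the right end of chromosome 2 Orc1 had 1010 bp in library 1 (2.4 fold) and a peak of 3577 bp plus 4 further ones in library 2 (at most 4.4 fold, over TDEL0B07690), with scattered Orc2 and Orc4 peaks of at most 1.9 fold. At the left end of chromosome 3 all 6 lists met at 18.4 kb, between TDEL0C00160 and TDEL0C00170, with 10.5 and 10.4 fold for Orc1, 19.1 and 19.3 fold for Orc2, and 17.9 and 11.8 fold for Orc4. Toward the tip only Orc1 library 2 had a peak, of 344 bp with 2.4 fold. At the right end of chromosome 7 the subunits met at 14.8 kb, with 5.0 and 3.7 fold for Orc1, 5.6 and 5.0 fold for Orc2, and 8.7 and 6.3 fold for Orc4. Library 2 of Orc1 had small peaks at the tip with 2.0 and 2.3 fold. The left end of chromosome 8 had a site at 0.89 kb, outside TDEL0H00100, with 15.9 fold in Orc1 library 2, 12.2 and 11.8 fold for Orc2, and 16.7 and 12.4 fold for Orc4. The Orc1 library 1 peak over it had its summit of 7.8 fold 0.125 kb from the end, away from the site. It had a second site at 8.57 kb between TDEL0H00120 and ARN2, named for a siderophore transporter, with 4.3 to 7.6 fold over the 6 lists.

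Genes of the terminal 20 kb were few and mostly without a symbol. The gene table of assembly ASM24337v1, used for names and order only, placed 104 of its 5174 genes there, of which 97 were protein-coding and 7 were tRNA genes. They numbered 3.25 per 10 kb, against 5.70 elsewhere, and 20 of 104 had a symbol (19.2%), against 81.0% elsewhere. Peak summits outside genes made up 76.3% and 70.1% of Orc1 members, 82.8% and 86.2% of Orc2 members, and 83.9% and 91.3% of Orc4 members. Elsewhere these shares were 72.0% and 72.6%, 69.0% and 73.8%, and 68.7% and 82.7%.

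Orc1 peaks reached over more terminal genes than Orc2 and Orc4 peaks did. Orc1 lists overlapped 20 and 45 of the 104 genes (19.2% and 43.3%), Orc2 lists 11 and 6, and Orc4 lists 12 and 7. In both Orc1 lists there were 20 genes (19.2%), against 5.82% of all genes and 5.54% of those elsewhere. Any Orc2 or Orc4 list overlapped 15 terminal genes (14.4%), against 10.3% of all genes. All 4 of these lists overlapped 3 terminal genes (2.88%), against 5.48% of genes elsewhere. Genes under both Orc1 lists and no Orc2 or Orc4 list numbered 8 of 104 (7.69%) at the ends and 15 of 5070 (0.296%) elsewhere. These 8 were TDEL0B00100, TDEL0B00110, TDEL0B07690, TDEL0C00160, TDEL0E00100, TDEL0H00100, TDEL0H00110 and TDEL0H04530. The table used gives no symbol for them.

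Gene lists gave few terminal members. Both annotated mating-type genes lay in the window and under both Orc1 lists. Of 193 tRNA genes, 7 lay there, 5 of them under both Orc1 lists (71.4%) and 6 under an Orc2 or Orc4 list (85.7%). Of the 186 tRNA genes elsewhere, 33 (17.7%) were under both Orc1 lists and 104 (55.9%) under an Orc2 or Orc4 list. The 7 terminal genes lie at 3 ends, and several share an Orc1 peak. The lists of maltose and sucrose genes (1 of 1, IMA2) and of metal and siderophore genes (1 of 6, ARN2) had a member each in the window, and neither was under both Orc1 lists. None of 6 ORC genes, 11 silencing genes, 11 rRNA genes, 6 alcohol and aldehyde dehydrogenase genes or 2 hexose transporter genes lay in the window. Of the 20 genes with a symbol, 4 were under an Orc1 peak, and the 2 besides the mating-type genes, GAL7 and HSP31, were under library 2 alone and were singled out after their values were seen.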

How the data were processed

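ChIP-seq libraries of 6 immunoprecipitates, 2 inputs and 1 mock immunoprecipitate were made with a ThruPLEX kit, per the labels' protocols. Tools named in the submitters' processing notes are MACS2 2.2.7.1, Bowtie2 2.3.4.1 and cutadapt 2.10. For their settings and the build of the genome, nothing is given in the sources used here. The authors deposited 1 peak list per immunoprecipitate, so peaks were called per library. Each deposited peak has a fold enrichment, which is a ratio to the control, and −log10 p and −log10 q values. The deposited score column was not used. Peak names hold the word subsample in all lists and the words SIR and Kos3V5 in the Orc1 lists, which the labels do not explain. The control's strain number in the peak names also differs from that in the labels. Lists hold no counts, so depth is unknown and no counting interval is given.

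Distances, coverage, gaps and sites were computed with Python 3.11.15, numpy 2.4.6 and pandas 2.3.3, and figures were drawn with matplotlib 3.10.9. Peaks overlapped if they shared at least 1 bp. Sequences were assigned to chromosomes 1 to 8 by number. For 8 of 8 sequences the chromosome of the same number in the ASM24337v1 gene table placed the most summits outside genes, with 65.5% to 76.3%, whereas other chromosomes gave a median of 35.7%. Libraries were compared by exact permutation (15 splits of 2 Orc1 against 4 others), after a test on simulated data. A site's fold and width in a list are those of its strongest overlapping peak. Genes were named by rule: the gene nearest an end, genes holding or flanking the strongest peaks, genes under the widest Orc1 peak, and members of the listed gene groups. The flocculin list matched no gene of the table. Members, lists and tests were chosen with earlier results of these data known.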

Additional observations from a re-analysis of the deposited data

Results flagged for a closer look

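Orc1 at the sites of the terminal 20 kb departed from Orc2 and Orc4 in both fold enrichment and width, when each list was set against its own other sites. The log2 ratio of median fold enrichment, terminal over other sites, was 0.89 higher for Orc1. Its values were 0.15 and 0.29 in the Orc1 lists, −0.48 and −0.62 in the Orc2 lists, and −0.83 and −0.76 in the Orc4 lists. The same ratio for width was 1.59 higher for Orc1, at 0.78 and 1.96 in the Orc1 lists, −0.20 and −0.35 in the Orc2 lists, and −0.23 and −0.08 in the Orc4 lists. Both were picked out because the libraries of Orc1 lay on one side of 0 and all 4 others on the other side. Each had an exact permutation p of 0.0667, two-sided, the smallest that 15 splits can give, so neither can pass 0.05. Lists separated in this way tend to give that smallest p, so the p adds no support beyond the separation. With equal numbers of peaks per list the fold difference was 0.29 (exact permutation p = 0.2, two-sided) and the width difference 1.39. These measures were added after the data were seen. Control, tag and antibody changed with the subunit and cannot be told apart from it.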

How the results depend on the processing

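Results were recomputed under another window (10, 15 or 30 kb), peak threshold or number of peaks (the best 248 per list). Library set, end position and overlap rule were also changed, which gave 193 values in all. Of these, 178 were classed as the same, 9 as moved and 6 as reversed. For a tested difference, same means only that its sign was kept, because no split can give p below 0.05. Its size could change, and some settings could not alter some values, such as the window for runs of peaks. All 9 moved values are shares of Orc1 bases, judged by a binomial interval over bases, so small changes count as moved. The difference in median fold of members (−0.41) became 0.34 at a −log10 q of at least 10 and 0.0864 with equal numbers of peaks. The cause was not tested. The difference in median width (0.05) ranged from −0.19 to 0.29 with single libraries left out, and was −0.12 without the right ends of chromosomes 3 and 7, an alternative chosen after seeing the data. Its values fell below 0 at −0.19, −0.04 and −0.0016 without Orc1 library 1, Orc2 library 1 and Orc4 library 2. The share of Orc1 library 1 bases also in library 2 (99.5%) was 99.6% at 10 kb, 98.9% at 30 kb, 99.1% with equal numbers and 99.6% without those right ends. The reverse share (38.6%) was 43.6%, 41.3%, 41.1% and 39.8% under these settings and 39.96% at a −log10 q of at least 10. Neither share has a value without an Orc1 library.

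The ratio of Orc1 to Orc2 and Orc4 covered length was 3.28 without Orc1 library 2 and 8.46 without Orc1 library 1, against 5.87 with all. At the left ends alone, also chosen after seeing the data, it was 7.33. The count of 15 ends fell to 12 at 10 kb. Deviations of covered length per end had no shared direction among libraries with the same replicate number in the titles. They correlated at −0.52 for Orc1 with Orc2, 0.23 for Orc1 with Orc4 and −0.19 for Orc2 with Orc4 (16 ends). Whether same-numbered libraries were prepared together cannot be read from this. Permuting within a replicate block left values as they were, with an exact permutation p of 0.111 for covered length, the smallest possible. What limits all values is that there are 2 libraries per subunit and no read counts.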
